A study of Mus musculus with 4 samples.

Results

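A set of 29 genes of the oligodendrocyte lineage and of myelin was followed in RNA sequencing libraries of cultured mouse microglia, the resident macrophages of the brain. The genes were taken by symbol from a fixed list out of the 56832 genes listed, and all 29 were found. Of them 28 were listed under their own symbol, and Qk was listed as Qki, a RefSeq synonym. The 4 libraries form 1 group, microglia of the C57BL/6 strain from primary glia culture, sorted by flow cytometry after trypsin treatment, with no further agent or allele named in the labels. Animal age, the sorting antibodies and the number of cultures behind the libraries were not stated, so the SDs and p-values below describe library-to-library spread alone, part or all of which may be technical. In the series, microglia serve as the endogenous reference for hematopoietic stem and progenitor cells (cHSPCs) kept in culture alone or with microglia-depleted glia, which were not analysed here. With 1 group, the questions are how high each gene stood and how evenly it did so across the 4 libraries.

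The libraries held 23212183 to 28469813 gene counts, so that 3 counts, the most that a count of 0 allows, equal 0.105 to 0.129 CPM (counts per 1000000 gene counts); this limit covers counting error only. The labelled cell type was checked first. All 10 microglia and macrophage markers examined (C1qa and Fcrls the highest, with Cx3cr1, Tmem119, Csf1r and others) were at 1 CPM or more in every library, and their summed level was 26578 to 27099 TPM (counts per gene length, scaled to a common total). Markers of other cells of a glial culture were present at lower levels. For comparison, 51.7% of protein-coding genes were at 1 CPM or more in every library. Of 12 astrocyte genes 11 were at 1 CPM or more in every library, summing to 424 to 706 TPM, led by Sparc and Clu. Of 9 genes of mural cells and fibroblasts 7 were, summing to 101 to 158 TPM and led by Acta2, which passed the spread test below (edgeR adjusted p = 0.0041), and Tagln. Acta2 did not pass without replicate 3. For endothelial cells it was 1 of 5 (Flt1, with Cdh5 next by TPM and Tek at 0 counts, 18.8 to 20.5 TPM summed). For neurons it was 2 of 6 (Map2 and Stmn2, with Snap25 at 0 counts, 4.22 to 6.54 TPM), and for Schwann cells 2 of 5 (Egr2, which passed the spread test below with adjusted p = 8.9e-12 in edgeR, and Prx, 5.54 to 21.7 TPM). Egr2 did not pass without replicate 1. In bulk RNA, fewer cells of a type and less RNA per cell cannot be told apart. The labels give the sex as female, and Xist was at 253 to 341 CPM, but the Y-linked gene Ddx3y was also present, at 30.0 to 41.5 CPM.

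Oligodendrocytes wrap axons in myelin, a stack of membrane rich in galactolipids and held together by a small set of proteins. They arise from progenitors that carry the PDGF receptor alpha and the NG2 proteoglycan, under the control of OLIG2, SOX10 and, at the onset of myelination, MYRF. Several of these genes are also transcribed outside the lineage. The RNA-binding protein gene Qk and the phosphodiesterase gene Cnp are used in many tissues, Cspg4 in pericytes, and the Mbp gene has an upstream promoter for golli transcripts, which are known from immune cells. Counts per gene symbol do not tell such transcript forms apart.

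The genes separated into a few that were clearly transcribed in these samples and many at or near 0. In every library 7 of the 29 genes were at 1 CPM or more (Olig1, Olig2, Cspg4, Lpar1, Mbp, Cnp and Qk), or 24.1% of the set, beside 51.7% of protein-coding genes and 20.6% of all listed genes. A further 20 were under 1 CPM in all 4 libraries, beside 44.2% of protein-coding genes and 77.1% of all listed genes, and 4 of these 20 (Mog, Opalin, Ermn and Enpp6) had 0 counts throughout, as did 28.5% of protein-coding genes. Mag and Tubb4a were above 1 CPM in some libraries and below it in others. Nearest to the threshold, apart from these, were Olig2 above it, at 2.42 CPM in its lowest library (replicate 4), and Myrf below it, at 0.777 CPM in its highest (replicate 1). Because of the many genes at the floor, the median over the 29 genes was 0.183 TPM ± 0.0588 (SD, n = 4), against 1.67 ± 0.121 over protein-coding genes. Together the 29 genes took 0.0743% ± 0.00193 of the gene counts, and 0.0269% without Qk.

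**Figure D1:**
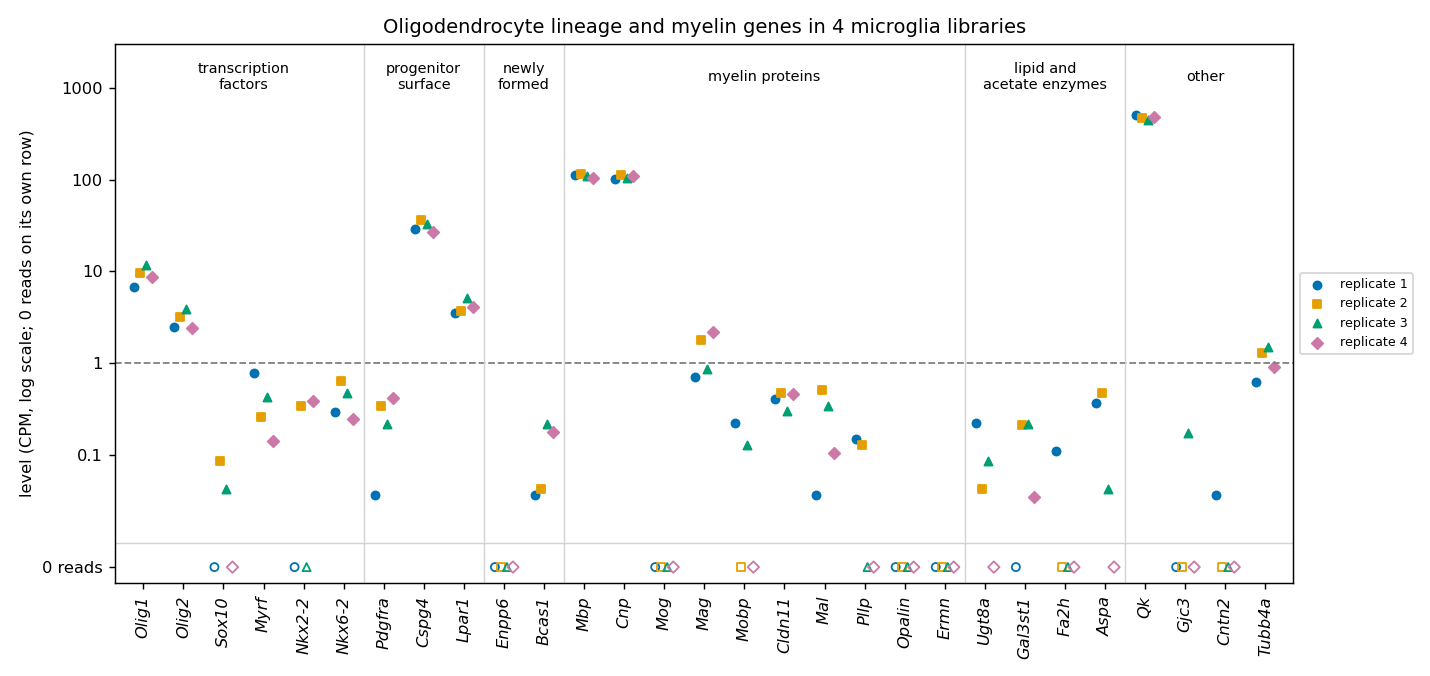
Level of each of the 29 genes in each of the 4 libraries, in CPM on a log axis, with genes grouped by role; open symbols on the bottom row stand for 0 reads and the dashed line marks 1 CPM. CPM is not corrected for gene length, so heights compare libraries within a gene. The 4 libraries of Mbp, Cnp and Qk lie on top of each other near or above 100 CPM, whereas most other genes lie under the line.

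Among the 6 transcription factors, the OLIG genes were present and the others were at the floor. Olig1, a basic helix-loop-helix factor of the lineage, was at 6.70, 9.51, 11.8 and 8.78 CPM in replicates 1 to 4. Its level was lowest in replicate 1 and highest in replicate 3. Its paralog Olig2, which specifies the lineage and is needed for it, was at 2.48, 3.16, 3.92 and 2.42 CPM, again highest in replicate 3. Per length, Olig1 was at 14.4 TPM ± 3.19 and Olig2 at 4.01 ± 0.924 (SD, n = 4). The ratio of Olig1 to Olig2 TPM was 3.16, 3.53, 3.51 and 4.24 in the 4 libraries, so Olig1 was the higher in 4 of 4. Both genes lie on chromosome 16. Sox10, which sustains the lineage from progenitor to myelinating cell, had 0, 2, 1 and 0 counts. Myrf, the activator of myelin genes, had 21, 6, 10 and 4 counts and so was under 1 CPM even in replicate 1. Nkx2-2, a homeodomain factor of differentiating progenitors, had 0, 8, 0 and 11 counts, which places all of its reads in replicates 2 and 4. Nkx6-2, a homeodomain factor of mature oligodendrocytes, had 8, 15, 11 and 7 counts. Its Inpp5a neighbour, on the opposite strand and at 20.6 CPM ± 2.55, overlaps 12.9% of its exon bases, so those reads may not be told apart.

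The progenitor surface genes did not go together. Cspg4, which encodes the NG2 proteoglycan, was at 28.9, 36.1, 32.4 and 26.6 CPM in replicates 1 to 4, or 8.80 TPM ± 1.161 (SD, n = 4). Pdgfra, the receptor through which PDGF keeps progenitors dividing, had 1, 8, 5 and 12 counts, or 0.0855 TPM ± 0.0562. With 26 counts of Pdgfra against 3134 of Cspg4 over the 4 libraries, the ratio of their TPM was 0.00987 (exact 95% counting interval 0.00644 to 0.0145). The smooth muscle genes Acta2 (84.5 TPM ± 21.2) and Tagln (28.7 ± 6.85) stood above Cspg4, whereas the pericyte receptor Pdgfrb was at 2.33 ± 0.289 and the pericyte marker Rgs5 at 0.147 ± 0.155. Lpar1, a receptor for lysophosphatidic acid, was at 3.55, 3.67, 5.13 and 4.07 CPM, highest in replicate 3, or 3.24 TPM ± 0.551.

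Genes of newly formed oligodendrocytes were at the floor. Enpp6, a choline phosphodiesterase used to mark cells that have just begun to differentiate, had 0 counts in all 4 libraries. Bcas1, a marker of early myelinating cells, had 1, 1, 5 and 5 counts. Over the 4 libraries the 12 counts of Bcas1 equal 0.117 CPM, with an exact 95% upper limit of 0.205 CPM.

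The 10 myelin protein genes were split between high levels and the floor. Mbp, which encodes the basic protein that holds the cytoplasmic faces of myelin together, was at 111, 115, 109 and 103 CPM in replicates 1 to 4, a highest-to-lowest ratio of 1.11. Cnp, the cyclic nucleotide phosphodiesterase of non-compact myelin, was at 102, 111, 105 and 108 CPM, a ratio of 1.09. Per length these are 43.9 TPM ± 2.11 for Mbp and 99.3 ± 3.08 for Cnp (SD, n = 4), and Cnp stood above 92.5% of protein-coding genes. The TPM of Cnp was 2.14, 2.26, 2.23 and 2.43 times that of Mbp in the 4 libraries. This order rests on gene length: with the longest transcript in place of all exons the ratio was 1.61, and without length it was 0.97. Dnajc7, on the other strand at 133 CPM ± 7.85, overlaps 4.23% of the Cnp exon bases. The other genes of compact and outer myelin did not accompany them. Mobp, the second basic protein of compact myelin, had 6, 0, 3 and 0 counts, and over all libraries the TPM of Mbp was 1004 times that of Mobp (exact 95% counting interval 529 to 2197). That ratio was 2202 without replicate 1, which held most of the Mobp reads. Mog, the outer surface glycoprotein, Opalin, a membrane protein of mature oligodendrocytes, and Ermn, a cytoskeletal protein of late myelination, had 0 counts in all 4 libraries. Cldn11, which forms the tight junctions of the sheath, had 11, 11, 7 and 13 counts, or 0.741 TPM ± 0.137. Mal, a raft proteolipid, had 1, 12, 8 and 3 counts and Pllp, plasmolipin, had 4, 3, 0 and 0. An antisense gene overlaps 54.2% of the Pllp exon bases.

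Mag, the adhesion glycoprotein that faces the axon, had the largest variation among the 9 of the 29 genes tested for spread. It was at 0.703, 1.79, 0.862 and 2.18 CPM in replicates 1 to 4, from 19, 42, 20 and 62 counts. Replicates 2 and 4 were thus above replicates 1 and 3, with a highest-to-lowest ratio of 3.10. The 4 libraries averaged 1.15 TPM ± 0.587.

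The stretches upstream of these genes were searched for the letters that SOX factors read and for the other motifs given below. The windows are the 250 bases before the annotated start, from RefSeq on GRCm38.p6, another build than the one the counts were made on. Of the 29 genes 23 had an entry, and Olig1, Sox10, Myrf, Bcas1, Mbp and Fa2h did not. Shown 5′ to 3′ on the gene's strand are Cnp and Cspg4, both transcribed here, and Mobp and Mog, at or near 0. Capitals mark the SOX-type letters ACAAAG or, on the other strand, CTTTGT.
Cnp, chr11:100574689-100574938, plus strand: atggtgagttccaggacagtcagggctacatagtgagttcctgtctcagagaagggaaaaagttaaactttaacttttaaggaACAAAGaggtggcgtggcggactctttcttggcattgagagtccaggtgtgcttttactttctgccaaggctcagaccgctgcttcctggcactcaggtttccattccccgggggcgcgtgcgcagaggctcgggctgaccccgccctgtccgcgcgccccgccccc
Cspg4, chr9:56864854-56865103, plus strand: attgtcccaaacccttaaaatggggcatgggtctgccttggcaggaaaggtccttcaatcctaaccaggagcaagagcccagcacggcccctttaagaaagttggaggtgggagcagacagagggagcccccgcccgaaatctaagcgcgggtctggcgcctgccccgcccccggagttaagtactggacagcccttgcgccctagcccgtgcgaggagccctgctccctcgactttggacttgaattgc
Mobp, chr9:120149492-120149741, plus strand: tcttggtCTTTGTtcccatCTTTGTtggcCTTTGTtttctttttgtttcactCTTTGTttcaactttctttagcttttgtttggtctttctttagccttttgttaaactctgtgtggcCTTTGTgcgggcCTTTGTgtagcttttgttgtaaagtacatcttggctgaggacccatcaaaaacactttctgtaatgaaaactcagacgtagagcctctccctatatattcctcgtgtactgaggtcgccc
Mog, chr17:37023399-37023648, minus strand: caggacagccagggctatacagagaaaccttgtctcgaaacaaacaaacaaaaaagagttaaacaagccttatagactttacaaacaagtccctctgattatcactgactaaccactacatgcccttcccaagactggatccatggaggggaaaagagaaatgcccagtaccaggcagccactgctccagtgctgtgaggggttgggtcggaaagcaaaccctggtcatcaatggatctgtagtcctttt
The Mobp window held 6 copies, and of the 32851 windows of this length it was the 1 window with 6 or more; this was looked for after the copies had been seen. At least 1 copy stood in 16.5% of all windows, in those of Cnp and Lpar1 among the 5 transcribed genes with an entry, and in those of Mag, Mobp and Opalin among the other 18. The macrophage factor PU.1 reads GAGGAAGT; on either strand it was in 2.44% of all windows and in 0 of the 23 genes. Its core GAGGAA, which that longer motif contains, was in 23.3% of windows, in 2 of the 5 transcribed genes (Lpar1 and Qk) and in 6 of the other 18. The E-box CAGCTG was in 13.0% of windows and here in Aspa alone, and the looser E-box CANNTG, which includes it, was in 66.2% of windows, in 2 of the 5 and in 11 of the 18. The windows of the 5 transcribed genes held a median of 13 CpG over 7 windows, the other 18 genes a median of 4 over 22 windows, and all windows a median of 6. The shares of all windows are per window, whereas a gene counts if any of its windows holds the motif. Gal3st1, Lpar1 and Mag have more than 1 window, which raises their chance of a match. A match describes these letters only, and no binding was measured.

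The 4 listed genes for enzymes of myelin lipids and acetate were at the floor. Ugt8a makes galactosylceramide and had 6, 1, 2 and 0 counts. Gal3st1 sulfates that lipid to sulfatide and had 0, 5, 5 and 1 counts. With 9 and 11 counts over the 4 libraries, the ratio of their TPM was 0.37 (exact 95% counting interval 0.135 to 0.977). It was 0.12 without replicate 1. Without length it was 0.82 (0.300 to 2.17). Ugt8a had more counts than Gal3st1 in replicate 1 and fewer in replicates 2 to 4. The interval covers counting error only, so the order of these genes is not settled. Fa2h, which adds the hydroxyl group of myelin fatty acids, had 3 counts, all in replicate 1. Aspa, which splits N-acetylaspartate to supply acetate, had 10, 11, 1 and 0 counts.

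The remaining 4 genes ranged from the highest to the lowest with reads. Qk, whose proteins bind and splice myelin RNAs, was at 505, 464, 445 and 485 CPM in replicates 1 to 4, a highest-to-lowest ratio of 1.13. Per length it was at 113 TPM ± 6.97 (SD, n = 4), 1.14 ± 0.0887 times Cnp. The order of these genes was the same with the longest transcript, at a ratio of 1.52. Tubb4a, a beta-tubulin of oligodendrocytes and neurons, was at 0.629, 1.28, 1.51 and 0.913 CPM, lowest in replicate 1 and highest in replicate 3. Gjc3, a connexin of glia, had 4 counts, all in replicate 3. Cntn2, an axonal adhesion protein also made by oligodendrocytes, had 1 count, in replicate 1.

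Whether a gene varied between the libraries more than genes of like abundance was asked for the 9 genes with enough counts, Mag and Tubb4a besides the 7 above the floor. None of the 9 passed at an adjusted p under 0.05 (edgeR deviance test, trended dispersion, Benjamini-Hochberg over all 12879 genes tested), beside 1.11% of all genes tested, so 0 of 9 is near the background. Mag alone had an unadjusted p under 0.05 (edgeR adjusted p = 0.50), as had 6.79% of all genes, and DESeq2 marked 0 of the 9 as dispersion outliers beside 0.536% of all. With a common dispersion Mag passed (edgeR adjusted p = 0.0053), and over its other alternatives its adjusted p lay at up to 0.98. A p that misses the threshold does not show that the level was the same in each library.

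The coefficient of variation between libraries was 3.72% for Cnp, 4.38% for Mbp and 5.44% for Qk. It was 13.4% for Cspg4, 17.4% for Lpar1, 22.7% for Olig1, 23.4% for Olig2, 35.9% for Tubb4a and 51.7% for Mag. Counting error alone would give 1.92% for Cnp, 6.57% for Olig1, 9.79% for Lpar1, 11.5% for Olig2, 16.7% for Mag and 19.2% for Tubb4a. Astrocyte genes moved between the same libraries. Their summed level was 490, 761, 831 and 666 CPM in replicates 1 to 4. All 11 of the astrocyte genes tested were lowest in replicate 1, beside 35.3% of all genes tested. Among the 11 were Gfap, Slc1a3, Clu and Sparc, which passed the edgeR test. Without replicate 1, 0 of these genes passed. Sparc and Clu, at 262 and 214 CPM on average, weigh most in the astrocyte sum. Of the 11 genes tested, 6 were highest in replicate 3, 3 in replicate 2 and 2 in replicate 4. Of all genes tested, 30.2% were highest in replicate 3, 22.9% in replicate 2 and 22.8% in replicate 4. Olig1 and Tubb4a were in the same order over the libraries as the astrocyte sum, and Olig1 was 1.37, 1.25, 1.41 and 1.32% of it. The coefficient of variation of that share was 5.27% for Olig1, 14.3% for Olig2, 16.3% for Lpar1, 16.3% for Tubb4a and 49.2% for Mag. Each was below that of the gene's own CPM. For Olig1 and Tubb4a it was also below counting error alone, and for Lpar1 and Mag it was only slightly below the gene's own. For Cnp, Mbp and Qk the share varied more than the gene itself, by 21.8, 25.3 and 30.0%, and Cspg4 also varied more, by 20.02%. The summed macrophage markers, in which the highest genes weigh most, varied by 0.664% across the libraries, but P2ry12 of that list varied by 19.5% and passed the edgeR test (adjusted p = 0.0010), though not without replicate 3, without replicate 4 or with a common dispersion. These shares were computed after the values had been seen, with only 4 libraries. Whether astrocyte RNA had a part in the Olig1, Olig2, Lpar1, Tubb4a or Mag levels was not tested. The sum of the mural and fibroblast list, 82.7, 102, 111 and 80.5 CPM, was also highest in replicate 3. Acta2 and Tagln make up most of this sum. Yet 4 of the list's 7 tested genes (Col1a1, Col1a2, Col3a1 and Dcn) were lowest in replicate 3, beside 20.5% of all genes tested. The other 3 (Acta2, Tagln and Pdgfrb) were highest there, beside 30.2% of all. On the log2 scale the 4 deviated by -0.85 to -0.33 in replicate 3 and the 3 by 0.18 to 0.45. The median over all 7, -0.33, hides this split. Over the mural and fibroblast sum the coefficient of variation was 8.03% for Olig2, 8.45% for Cspg4 and 13.2% for Olig1. It was 14.1% for Lpar1 and 23.1% for Tubb4a, and each of these was again below that of the gene's own CPM. For Mbp, Cnp, Qk and Mag it was above, at 13.7, 15.0, 20.4 and 59.5%. The 8.03% of Olig2 was below the 11.5% that counting error alone would give. Whether mural or fibroblast RNA had a part in the levels of these genes, Cspg4 included, was not tested.

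**Figure D2:**
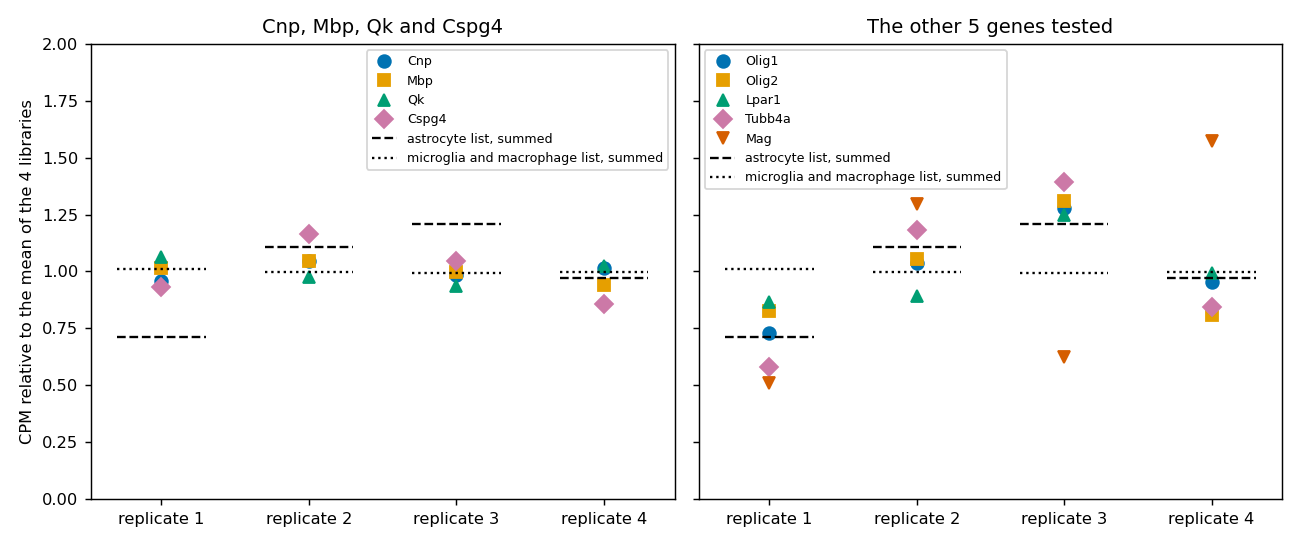
CPM of each of the 9 genes tested, divided by its mean over the 4 libraries, by replicate; short dashed lines give the summed CPM of the astrocyte list and dotted lines that of the microglia and macrophage list, scaled the same way. Cnp, Mbp and Qk stay near 1 in all libraries, while Olig1, Olig2, Lpar1 and Tubb4a are below 1 in replicate 1 and highest in replicate 3; Mag is highest in replicate 4.

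A wider list of 55 other genes of the oligodendrocyte lineage and of myelin, all found in the files, was set beside the 29. Of these 55, 22 were at 1 CPM or more in every library, beside 51.7% of protein-coding genes. A further 28 were under 1 CPM in all of them, beside 44.2% of protein-coding genes. Of those 28, 10 had 0 counts throughout, as did 28.5% of protein-coding genes. The median was 0.866 TPM ± 0.209 (SD, n = 4). The highest were genes also known from cells outside the lineage: the tetraspanin Cd9 at 991 TPM ± 30.8, transferrin Trf at 946 ± 19.5, the membrane protein gene Evi2a at 270 ± 33.6 and the semaphorin Sema4d at 218 ± 12.6. The tetraspanin Cd82 (181 TPM ± 10.3) and the peripheral myelin gene Pmp22 (179 ± 11.3) followed. Genes at 0 counts included the lineage factor Zfp488, the sphingosine phosphate receptor S1pr5, the sialidase Neu4, the connexin Gjb1 and the myelin-associated genes Ninj2 and Tmem125. The lowest with reads were the receptor Gpr17, with 4 counts, and the link protein Hapln2, with 2. Of the 29 genes of this list that were tested for spread, 2 passed (edgeR, adjusted over all genes) beside 1.11% of all genes tested, and DESeq2 marked 2 beside 0.536%. With a common dispersion 7 passed in edgeR, beside 532 of all 12879 genes tested. The prostaglandin synthase gene Ptgds was at 6.92, 7.77, 2.89 and 11.2 CPM (edgeR adjusted p = 0.00089). The lipocalin gene Apod was at 6.77, 4.01, 0.948 and 3.65 CPM (edgeR adjusted p = 0.00032). Both were lowest in replicate 3, and without it neither passed (edgeR adjusted p = 0.99998 and 0.95). Ptgds also failed without replicate 4 (edgeR adjusted p = 0.14).

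**Figure D3:**
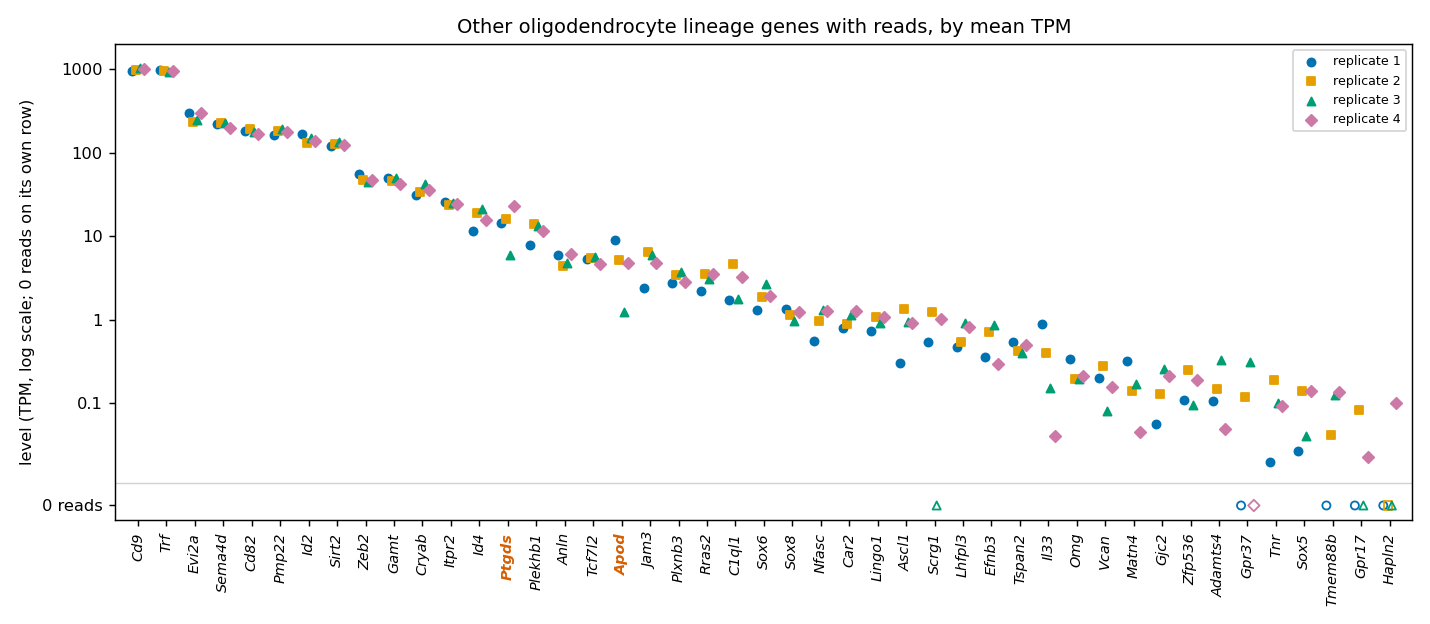
Level of the other lineage genes that had reads, in TPM on a log axis and ordered by mean TPM, in each of the 4 libraries; open symbols on the bottom row stand for 0 reads. Ptgds and Apod, in bold orange, passed the test of spread between libraries and are lowest in replicate 3, while Cd9 and Trf are the highest in all 4 libraries.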

How the data were processed

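Per the labels' protocols, cells were sorted into TRIzol LS, and libraries were prepared from DNase-treated RNA by NEBNext Ultra II. The authors deposited raw read counts per gene symbol, 1 file per library. The submitters' processing notes name HTSeq 0.11.2, STAR 2.7.10a and SAMtools 1.16.1, on build mm39 (GRCm39). Not given in the sources used here are the annotation release, counting mode and strand setting; overlapping and antisense genes may therefore share reads. The 5 summary lines, 11.6 to 12.0% of the reads listed, were left out of library sizes, and 0 columns belonged to no sample.

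CPM used the summed gene counts. TPM was computed here with merged exon lengths from GENCODE M21 (GRCm38), used for lengths, gene types and neighbours, and matched by symbol for 89.2% of symbols and 98.9% of counts; merged exons understate genes with many isoforms. Spread between libraries was tested in edgeR 4.0.16 (R 4.3.3) with an intercept-only model, TMM, filterByExpr, trended dispersion and the deviance against chi-square with 3 degrees of freedom; DESeq2 1.42.0 dispersion outliers were an alternative. Ratios have exact (Clopper-Pearson) intervals. All 29 genes are reported, by counts where low. By rule, the 6 highest, the 2 lowest and those past the test are named of the wider lineage list (the lowest taken among genes with reads), and the 2 highest by TPM and defining markers at 0 of the cell type lists. Other genes of these lists, those past the test included, and the genes of the wider list at 0 were picked after their values were seen. The genes, lists and tests were chosen with earlier results of these data known.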

Additional observations from a re-analysis of the deposited data

Results flagged for a closer look

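Of the 31 genes examined (25 of the 29 with reads and the 6 highest of the wider list), 3 had 1 library set apart from the others. All 3 had reads in 1 library and 0 in the other 3, which meets Dixon's 95% limit by construction, so its usual chance rate of about 1 in 20 groups does not apply. Fa2h was at 0.111 CPM in replicate 1 (3 counts), Gjc3 at 0.172 CPM in replicate 3 (4 counts) and Cntn2 at 0.037 CPM in replicate 1 (1 count).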

How the results depend on the processing

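The count of genes at 1 CPM or more in every library was 7 at 2 CPM, with TPM, with TMM scaling and without any 1 library, and 9 at 0.5 CPM; the count under the threshold was 17 to 21 over these settings. The median of 0.183 TPM became 8.80 TPM with only the genes that reached 1 CPM in any library, which removes those at the floor, and the mean over the genes was 10.1 TPM; without 1 library the median was 0.155 to 0.202. The share of counts fell to 0.0269% without Qk and was 0.0737 to 0.0752% without 1 library. The count of the 29 genes past the spread test was 1 with a common dispersion (Mag), and 0 with RLE scaling, with library totals, without a filter, in DESeq2 and without any 1 library. Over all genes the count of 143 became 532 with a common dispersion, 69 in DESeq2 and 47 to 118 without 1 library (47 without replicate 1, 52 without replicate 3). Without length the ratio of Olig1 to Olig2 was 3.08 and that of Ugt8a to Gal3st1 was 0.82. It was 0.97 for Cnp to Mbp and 4.47 for Qk to Cnp. With the longest transcript these last 2 were 1.61 and 1.52. Without 1 library the ratios were 3.41 to 3.73 (Olig1 to Olig2), 2.21 to 2.31 (Cnp to Mbp), 740 to 2202 (Mbp to Mobp), 0.123 to 0.600 (Ugt8a to Gal3st1), 0.00701 to 0.0126 (Pdgfra to Cspg4) and 1.10 to 1.17 (Qk to Cnp). Genes with under about 10 counts per library were too thin for the spread test. No paired analysis was possible because there is only 1 group.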

Other observations

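Some genes at the floor lie within 10 kb of genes that were transcribed in the same libraries. Sox10, with 3 counts in all, lies beside Polr2f, an RNA polymerase subunit gene on the opposite strand at 22.2 CPM ± 3.09 (SD, n = 4). Gal3st1, with 11 counts, lies beside Pes1, a ribosome biogenesis gene on the same strand at 106 CPM ± 4.06. Pllp, with 7 counts, lies beside Arl2bp at 50.5 CPM ± 3.15, and Cntn2, with 1 count, beside Rbbp5, a subunit of histone methyltransferase complexes, at 53.2 CPM ± 2.01. By contrast, the listed neighbours of Aspa, Enpp6 and Ermn were at 0 CPM, and those of Opalin at 0 and 0.0415 CPM on average. All neighbours named here are from GENCODE M21, on GRCm38, and were picked after their values were seen.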
